A study of Mus musculus with 3 samples.

Results

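The unfolded protein response module is a set of 32 genes of the endoplasmic reticulum (ER) stress pathway, chosen by gene symbol among the 32285 genes counted in each library. Every member was found. Ddit3 has 2 overlapping Ensembl entries, of which ENSMUSG00000025408 was used because the other held 0 UMIs in the cell classes described. By role, 6 members are stress sensors and transcription factors, 4 are targets of the PERK, ATF4 and CHOP branch, 10 are chaperones and their cofactors, 5 are lectin chaperones and disulfide isomerases, and 7 serve ER-associated degradation.

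Proteins that a cell secretes fold inside the ER. When unfolded protein builds up there, the sensors IRE1 (Ern1), PERK (Eif2ak3) and ATF6 signal to the nucleus: IRE1 splices the mRNA of the transcription factor XBP1, PERK slows translation while favouring that of ATF4, and ATF6 is cut to release its active part. The resulting factors raise chaperones, disulfide isomerases and degradation genes, and ATF4 also raises genes of amino acid supply. Tendon fibroblasts make large amounts of type I collagen, which is hydroxylated, folded and assembled in the ER. Counts of mRNA ends, as used here, read neither the splicing of Xbp1 nor the activity of the sensors.

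Flexor digitorum longus (FDL) tendons were profiled by single-cell RNA sequencing to compare early loss of Scleraxis-lineage cells with natural aging. Each group is 1 library of 16 pooled tendons. The 6 M WT mice (WT) were Scx-Cre-; DTR F/+, the 6 M DTR mice (DTR) were Scx-Cre+; DTR F/+, both on the C57BL/6J strain, and both received 5 daily injections of diphtheria toxin (DT). The 21 M B6 mice (B6) were untreated C57/Bl6 animals. In DTR mice the Scx promoter drives Cre, which switches on the DT receptor in cells of the Scleraxis lineage and makes them sensitive to DT, and the tenocyte-like cells measured are those that remained. The WT mice share the toxin and the receptor allele with DTR, whereas the B6 mice have neither. The labels give an age of 3 months for WT and DTR, while the study's methods give injection at 3 months and harvest at 6 months. Digestion took 120 min for WT, against 90 min for the other libraries, and cannot be told apart from the group differences. With 1 library per group there is no replicate and no test was made. The ranges below are exact 95% intervals that cover counting error only.

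The promoter sequences are shown first, because some of them carry motifs named for this response. The module itself was chosen by gene symbol. RefSeq promoters (build GRCm38.p6, 250 bases before to 50 bases after the start of transcription) were found for 27 of the 32 members. Hspa13, Hyou1, Atf6, Manf and Derl1 had no entry. Both strands were searched for the ER stress response element ERSE (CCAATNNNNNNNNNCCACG), its second form ERSE-II (ATTGGNCCACG), the unfolded protein response element UPRE (TGACGTG) and the C/EBP-ATF response element CARE (TGATGNAA), to which ATF4 binds as a dimer. The ERSE was found in 8 of the 27 members, namely Hspa5, Hsp90b1, Calr, Canx, Pdia6, Dnajc3, Creld2 and Syvn1, and in 0.119% of the 32851 promoters of the table. The ERSE-II was found in Dnajb11 and Herpud1 and in 0.0365% of all promoters. The UPRE was found only in Hspa5 among the members and in 2.01% of all promoters. The CARE was found in Chac1, Trib3, Asns and Herpud1 and in 3.97% of all promoters. These are matches of letters, and binding was not measured.

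Of the ERSE genes, Hspa5 (chr2:34771908-34772068, plus strand), Hsp90b1 (chr10:86705508-86705681, minus strand), Dnajc3 (chr14:118937802-118937870, plus strand) and Creld2 (chr15:88819495-88819563, plus strand) are printed because they include both an even and clearly class-dependent chaperone genes. The CARE genes Chac1 (chr2:119351024-119351081, plus strand), Trib3 (chr2:152344039-152344071, minus strand) and Asns (chr6:7693210-7693257, minus strand) are printed because they were lower together in DTR tenocyte-like cells, and Herpud1 (chr8:94386292-94386412, plus strand) because it holds both kinds of motif. All stretches lie upstream of the start of transcription except that of Trib3, which ends 22 bases into the first exon. Each is written 5′ to 3′ along the strand of the gene, with the motifs in capitals. The capitals show the reverse complement where a motif lies on the other strand, as for the CARE of Chac1, Trib3 and Herpud1, the ERSE of Creld2 and the second ERSE of Hsp90b1.
Hspa5: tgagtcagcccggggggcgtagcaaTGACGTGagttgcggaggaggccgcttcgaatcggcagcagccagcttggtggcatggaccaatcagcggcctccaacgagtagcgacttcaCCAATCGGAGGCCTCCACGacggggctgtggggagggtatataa
Hsp90b1: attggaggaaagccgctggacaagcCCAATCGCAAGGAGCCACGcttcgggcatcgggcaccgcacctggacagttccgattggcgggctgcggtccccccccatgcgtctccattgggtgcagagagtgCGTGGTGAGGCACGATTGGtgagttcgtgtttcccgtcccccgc
Dnajc3: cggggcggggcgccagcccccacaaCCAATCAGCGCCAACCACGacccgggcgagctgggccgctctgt
Creld2: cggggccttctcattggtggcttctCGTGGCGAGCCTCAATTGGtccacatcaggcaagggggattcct
Chac1: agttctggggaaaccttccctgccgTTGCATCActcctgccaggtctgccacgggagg
Trib3: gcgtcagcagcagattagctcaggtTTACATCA
Asns: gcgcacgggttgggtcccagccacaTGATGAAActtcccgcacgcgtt
Herpud1: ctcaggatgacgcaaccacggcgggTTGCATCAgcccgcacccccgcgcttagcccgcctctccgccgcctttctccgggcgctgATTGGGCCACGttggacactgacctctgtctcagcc
In the Hspa5 promoter the ERSE ends 47 bases before the start site and the UPRE ends 151 bases before it. The 2 ERSEs of Hsp90b1 end 194 and 89 bases before the start, on opposite strands. The printed motifs do not overlap one another.

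Filters on genes per cell (1000 to 5000) and mitochondrial counts (10% or less) left 8357 WT, 6554 DTR and 4798 B6 cells, and values are given in that order throughout. Kept cells had a median of 13010, 12330 and 12910 UMIs. A cell was placed in a class when at least 3 of 8 markers of that class, and of no other class, had 2 or more UMIs, a limit set after the marker counts were seen. This gave 5091, 2664 and 817 tenocyte-like cells, 1107, 1054 and 2353 epitenon-like cells, 522, 1066 and 465 macrophage-like cells, and 134, 137 and 107 endothelial-like cells. Cells with markers of several classes were 4.58%, 4.62% and 5.73% of those kept and cells of no class 8.82%, 11% and 12.1%, and neither enters a class. The same markers placed the cells, so high levels of them in their own class follow in part from the gate. All 8 markers of each class were detected in its cells in each library. Tenocyte markers summed to 11870, 13160 and 12580 CPM (the UMIs of a gene over all UMIs of the class, scaled to a common total) in tenocyte-like cells and to 75.9, 64.3 and 51.8 CPM in macrophage-like cells. Macrophage markers summed to 11280, 11670 and 13740 CPM in macrophage-like cells and to 18.3, 28.1 and 23.2 CPM in tenocyte-like cells. Single markers could move apart between libraries within such sums. In tenocyte-like cells Cilp2 was at 1172, 1025 and 448.5 CPM and Thbs4 at 2508, 3973 and 4001 CPM. Whether a class held the same mix of cells in each library was not tested. Markers of plasma cells, which are immune cells built for secretion, summed to between 5.08 and 57.8 CPM in the 4 classes. Libraries shared between 13 and 15 barcodes of kept cells.

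Across tenocyte-, epitenon-, macrophage- and endothelial-like cells, the ER chaperone BiP (Hspa5), which binds unfolded proteins and holds the sensors inactive, was the most even member. Its level in tenocyte-like cells was 1029, 978 and 1293 CPM. Epitenon-like cells held 960, 934 and 1088 CPM, macrophage-like cells 1020, 908 and 1220 CPM, and endothelial-like cells 1011, 998 and 1075 CPM. Within a library, the highest of these 4 classes exceeded the lowest by at most 1.20-fold. No class stood apart on this plain scale, and in each of the 4 the B6 library held the highest level. TMM scaling, which sets library sizes by the bulk of the genes, gave factors of 0.823, 0.871 and 0.714 in tenocyte-like cells. Those of endothelial-like cells were 1.05, 1.02 and 0.934. Levels are divided by these factors, so that scaling raises tenocyte-like Hspa5 relative to endothelial-like Hspa5. The spans given here are without it. T/NK-like cells, at 492, 723 and 524 CPM, were lower, and over all 7 classes Hspa5 spanned 2.14-fold, 1.38-fold and 2.47-fold. At the other end were Selenos and Chac1, whose 4 classes spanned up to 8.87-fold and 13.4-fold in a library.

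**Figure D1:**
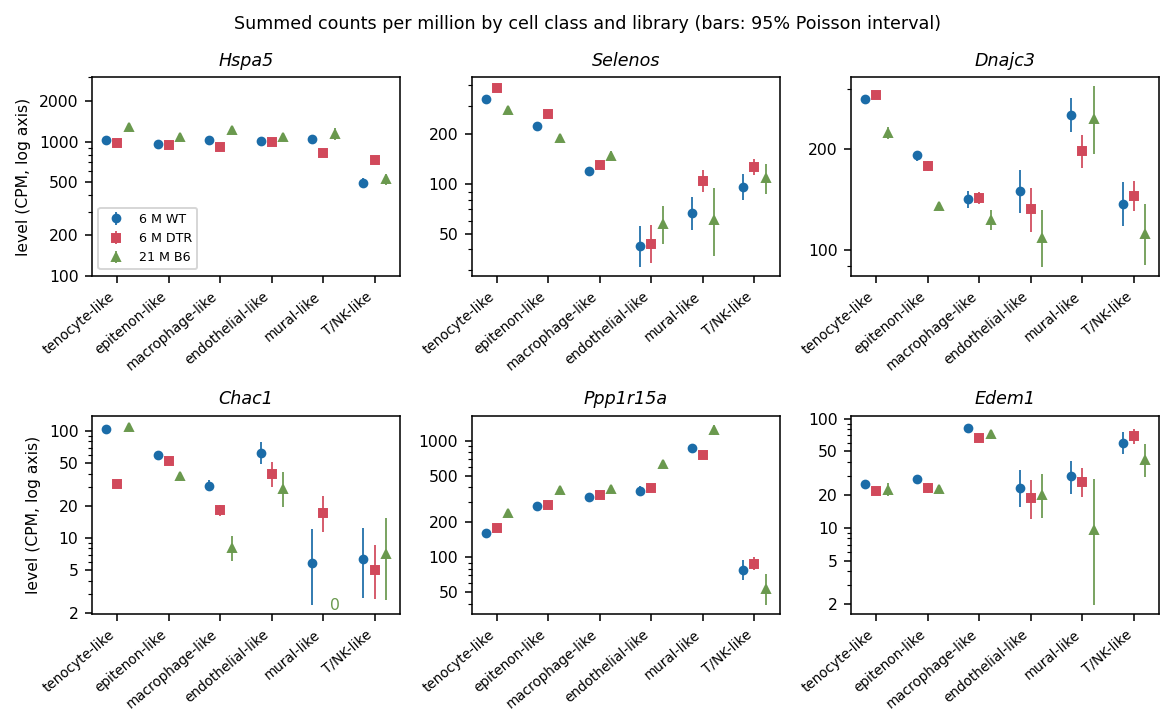
Levels of 6 members in 6 cell classes (horizontal axis) in CPM on a log axis, 1 point per library, with bars for the exact 95% Poisson interval. Hspa5 lies near 1000 CPM in 5 of the classes, Selenos falls from tenocyte-like to endothelial-like cells, and Chac1 in tenocyte-like cells is at 105 and 108 CPM in WT and B6 but at 32.3 CPM in DTR; the digit 0 marks a class with no UMI.

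Against macrophage-like cells, tenocyte-like cells held 6 members at 1.5-fold or more in all 3 libraries. They comprised Chac1, Creld2, Manf, Dnajc3, Pdia3 and Selenos, and 17.3% of all genes with at least 5 CPM met the same rule. Atf4, Ppp1r15a and Edem1 were lower by 1.5-fold or more in all 3 libraries, against 22.5% of all genes. The shares of members, 6 and 3 of 32, are close to or below these backgrounds. The median log2 ratio of the members was 0.35, 0.39 and 0.28, beside 0.01, −0.01 and −0.22 over all genes. With TMM scaling 12 members were higher and Edem1 alone was lower. Of 9870 genes measured with that scaling, 2061 were higher and 1960 lower. How the count of higher members stood to its background therefore depended on the scaling.

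Selenos, which encodes a membrane protein of the degradation complex, reached 330, 385 and 282 CPM in tenocyte-like cells and 120, 130 and 148 CPM in macrophage-like cells. The levels of both classes were apart in each library, with ratios of 2.75 (2.58 to 2.93), 2.96 (2.82 to 3.10) and 1.9 (1.77 to 2.05). Manf, a secreted factor held in the ER, was at 269, 223 and 245 CPM against 124, 114 and 123 CPM. Creld2, an ER-resident protein related to the isomerases, was at 40.2, 36.0 and 30.8 CPM against 17.5, 16.9 and 11.4 CPM. Both lay about as far apart in one library as in another, with ratios of 1.96 to 2.18 for Manf and 2.13 to 2.71 for Creld2. Dnajc3 (p58IPK), a BiP cofactor that restrains PERK, had 280, 288 and 223 CPM against 142, 143 and 123 CPM, and Pdia3 (ERp57), which forms disulfide bonds in glycoproteins, had 409, 431 and 263 CPM against 199, 210 and 165 CPM. In each of these members the lowest tenocyte-like library lay above the highest macrophage-like library. They were named for passing the fold in each library, which favours such a gap, and its share over all genes was not counted.

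Chac1, which breaks down glutathione and is a target of ATF4, varied most. Its tenocyte-like level was 105, 32.3 and 108 CPM and its macrophage-like level 30.8, 18.2 and 8.08 CPM, so the ratio ran from 1.78 (1.56 to 2.04) in DTR to 13.4 (10.2 to 18.0) in B6. The factor ATF4 itself was lower in tenocyte-like cells, at 465, 395 and 600 CPM against 815, 719 and 1012 CPM. Ppp1r15a (GADD34), which restores translation after PERK has slowed it, was at 163, 177 and 239 CPM against 332, 339 and 388 CPM. Edem1, which hands misfolded glycoproteins to degradation, was at 24.9, 21.5 and 22.3 CPM against 81.8, 66.9 and 71.9 CPM, and ratios lay between 0.305 and 0.321. For Atf4 and Ppp1r15a the ratio no longer reached 1.5-fold in all 3 libraries with TMM scaling.

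By role, the 10 chaperones and cofactors had median log2 ratios of 0.60, 0.72 and 0.48 between tenocyte-like and macrophage-like cells. On the plain scale 9, 9 and 8 of them had a ratio above 1, by any amount, and this share over all genes was not counted. The 5 lectin chaperones and isomerases had medians of 0.57, 0.83 and 0.41. The 6 sensors and factors had medians of 0.03, −0.54 and −0.55, and the 7 degradation genes −0.09, 0.29 and 0.04. Calreticulin (Calr) and calnexin (Canx), the lectins that hold glycoproteins until they fold, stayed within 1.5-fold in WT and DTR. Calr levels were 384, 354 and 369 CPM in tenocyte-like and 353, 337 and 377 CPM in macrophage-like cells. Canx was at 249, 264 and 190 CPM against 296, 278 and 321 CPM, so in B6 it was lower in tenocyte-like cells by more than 1.5-fold, with a ratio of 0.591 (0.554 to 0.629).

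Against endothelial-like cells, 12 members were higher in tenocyte-like cells in all 3 libraries, with 13.0% of all genes as background. They were Hsp90b1, Hyou1, Sdf2l1, Creld2, Manf, Dnajc3, Pdia4, Pdia6, Syvn1, Derl1, Derl2 and Selenos. Ppp1r15a and Dnajb9 were lower, with a background of 20.2%. The median log2 ratio of the members was 0.55, 0.46 and 0.67 beside −0.18, −0.14 and −0.26 over all genes. With TMM scaling 16 members were higher and Ppp1r15a was lower, where 1836 of 9730 genes were higher and 1376 lower. The share of higher calls among all genes called was 57.2% in place of 39.2%.

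Selenos gave the widest gap, with 42.2, 43.4 and 57 CPM in endothelial-like cells and ratios of 7.83 (5.95 to 10.5), 8.87 (6.86 to 11.7) and 4.95 (3.81 to 6.56). With each cell reduced at random to 2000 UMIs, 45.1%, 51.7% and 42.0% of tenocyte-like cells held a Selenos UMI, against 9.77%, 8.03% and 14.9% of endothelial-like cells. Unthinned, the shares were 92.9%, 94.3% and 86.4% against 26.9%, 30.7% and 34.6%, at median depths of 12910, 12390 and 10970 UMIs in tenocyte-like and 8382, 8539 and 7845 UMIs in endothelial-like cells. Selenos was detected in a minority of endothelial-like cells at either depth, and T/NK-like cells gave 14.8%, 25% and 20.5% after thinning.

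Hsp90b1 (GRP94), the HSP90 chaperone of the ER, was at 475, 532 and 360 CPM in tenocyte-like and 291, 251 and 221 CPM in endothelial-like cells. Every tenocyte-like level of this gene, which was named for passing the fold in each library, exceeded every endothelial-like level. Among the degradation genes, Derl1, a channel component through which proteins leave the ER, was at 68.8, 71.9 and 53.9 CPM against 31.4, 33.7 and 25 CPM. Syvn1 (HRD1), the ubiquitin ligase of that channel, was at 17.6, 19.1 and 14.7 CPM against 9.10, 9.73 and 7.0 CPM. The 7 degradation genes had median log2 ratios of 0.64, 0.59 and 0.73. On the plain scale 7, 6 and 7 of them had a ratio above 1, by any amount, and this share over all genes was not counted. Sdf2l1, a cofactor of BiP, was at 35.1, 32.2 and 20.1 CPM against 9.10, 5.99 and 5.00 CPM. The endothelial-like Sdf2l1 level rests on 11, 8 and 5 UMIs, and its intervals are accordingly wide, with 2.15 to 7.74, 2.72 to 12.5 and 1.69 to 12.5 as the bounds of the ratio. For Derl2 and Syvn1 the lower bound fell below 1 in B6.

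Hyou1, an exchange factor of BiP, was at 23.3, 23.4 and 22.9 CPM in tenocyte-like cells and at 9.93, 11.2 and 7.0 CPM in endothelial-like cells. Pdia4 was at 51.1, 57.7 and 39.0 CPM against 26.5, 35.2 and 22.0 CPM, and Pdia6 at 177, 165 and 123 CPM against 91.0, 102 and 70.0 CPM, both of them disulfide isomerases. Derl2, a relative of Derl1, was at 30.9, 35.0 and 21.6 CPM against 19.9, 23.2 and 13.0 CPM. In endothelial-like cells Manf was at 129, 135 and 129 CPM, Dnajc3 at 150, 132 and 109 CPM and Creld2 at 20.7, 17.2 and 9.0 CPM. In Hyou1, Pdia4, Pdia6, Manf, Dnajc3 and Creld2 the groups of 3 libraries did not overlap, while in Derl2 they did. All were named for passing the fold in each library, which favours such a gap, and its share over all genes was not counted.

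Among the sensors and factors, Xbp1 was at 182, 167 and 137 CPM in tenocyte-like cells, 126, 113 and 102 CPM in epitenon-like cells, 110, 103 and 101 CPM in macrophage-like cells and 187, 146 and 95 CPM in endothelial-like cells. Its ratio to macrophage-like cells was above 1 in each library, at 1.66 (1.55 to 1.77), 1.63 (1.54 to 1.72) and 1.35 (1.23 to 1.48). Atf6 was at 40.7, 36.6 and 39.7 CPM in tenocyte-like and 69.8, 67.7 and 58.7 CPM in macrophage-like cells, so each macrophage-like library lay above each tenocyte-like library. The share of all genes with such a gap was not counted. Eif2ak3 was at 15.6, 20.6 and 10.2 CPM against 10.7, 13.0 and 12.7 CPM, and Ern1 at 15.6, 12.1 and 15.3 CPM against 17.0, 21.7 and 27.0 CPM. Ern1 in tenocyte-like cells was below Ern1 in macrophage-like cells in each library, but in WT the ratio was 0.919 and its interval included 1. Eif2ak3 had no common direction. Against endothelial-like cells Eif2ak3 had ratios of 2.1 (1.10 to 4.60), 1.72 (1.05 to 3.02) and 1.14 (0.574 to 2.56). Sel1l, the scaffold of the Syvn1 ligase, was at 53.2, 65.5 and 44.1 CPM in tenocyte-like and 63.9, 52.7 and 43.0 CPM in macrophage-like cells, without a common direction either.

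Ppp1r15a was at 372, 393 and 638 CPM in endothelial-like cells, and its tenocyte-like ratio was 0.439 (0.399 to 0.483), 0.450 (0.412 to 0.493) and 0.374 (0.343 to 0.409). Mural-like cells, the contractile cells of vessel walls, had still more, at 862, 757 and 1248 CPM. Dnajb9 (ERdj4), a BiP cofactor that keeps IRE1 off, was at 156, 133 and 237 CPM in tenocyte-like and 256, 217 and 370 CPM in endothelial-like cells. Immediate early genes, which respond to handling of cells, also differed between these classes, with 10, 2 and 4 of 15 lower and 0, 3 and 2 higher in tenocyte-like cells, beside 32.6%, 30.8% and 36.2% of all genes lower and 22.2%, 24.7% and 21.5% higher. Mural markers summed to 627, 1021 and 1956 CPM and muscle fibre markers to 19.0, 98.0 and 167 CPM in endothelial-like cells, with 3, 0 and 0 of the 8 muscle fibre markers at 0. The part of these genes and markers in the Ppp1r15a and Dnajb9 differences was not tested.

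**Figure D2:**
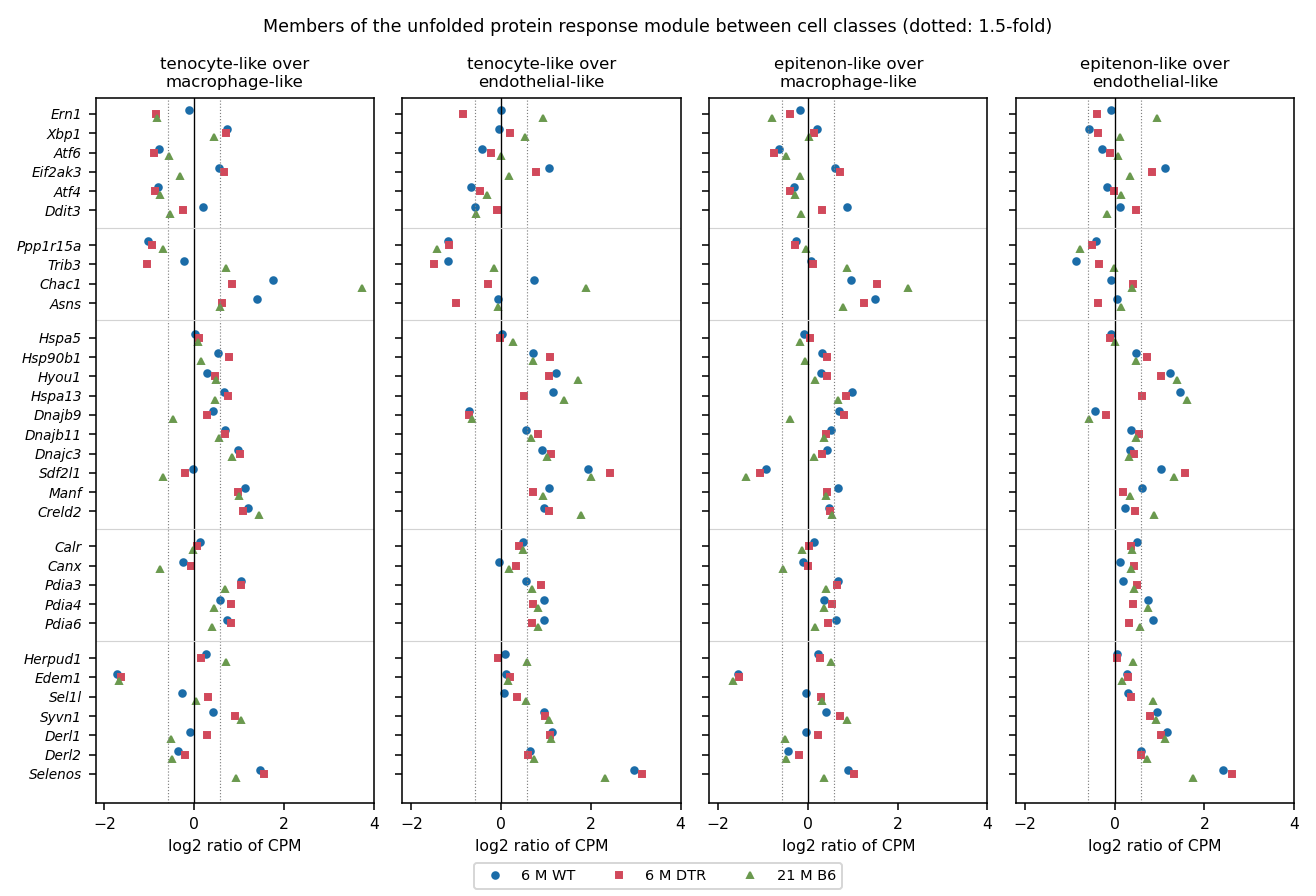
Log2 ratio of CPM between cell classes for the 32 members (vertical axis, grouped by role), 1 point per library and 1 panel per pair of classes, with dotted lines at 1.5-fold. Points of the chaperones lie mostly right of 0 in the tenocyte-like over endothelial-like panel, where 12 members pass 1.5-fold in all 3 libraries, and Hspa5 lies near 0 in each panel.

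Epitenon-like cells, the fibroblasts of the tendon's sheath, were compared in the same way. Against macrophage-like cells Hspa13, Chac1 and Asns were higher in all 3 libraries (background 21.5%), and Sdf2l1 and Edem1 were lower (background 17.6%). The shares of members, 3 and 2 of 32, are below these backgrounds. The median log2 ratio of the members was 0.30, 0.32 and 0.08, beside 0.14, 0.14 and −0.04 over all genes. Asns, which makes asparagine, was at 82.0, 55.3 and 59.1 CPM in epitenon-like and 28.9, 23.2 and 34.6 CPM in macrophage-like cells. Hspa13, an HSP70 relative of the ER, was at 45.5, 43.6 and 33.6 CPM in epitenon-like, 23.2, 24.1 and 21.0 CPM in macrophage-like and 16.5, 28.4 and 11 CPM in endothelial-like cells. Edem1 in epitenon-like cells was at 27.8, 23.0 and 22.5 CPM, close to its tenocyte-like level. These epitenon-like levels of Asns, Hspa13 and Edem1, named for passing the fold, did not overlap with the macrophage-like ones. The share of all genes without overlap was not counted. Against endothelial-like cells Hspa13, Hyou1, Sdf2l1, Syvn1, Derl1 and Selenos were higher (background 17.6%) and no member was lower (background 17.0%). The share of higher members, 6 of 32, is close to its background. With TMM scaling 9 members were higher than in endothelial-like cells, where 2158 of 9839 genes were higher and 1355 lower. The share of higher calls among the genes called in either direction was 61.4% in place of 50.8%. Selenos in epitenon-like cells, at 224, 267 and 191 CPM, lay between its tenocyte-like and macrophage-like levels in each library. Sdf2l1 was at 18.7, 17.8 and 12.5 CPM, below the macrophage-like 35.5, 37.2 and 32.3 CPM and below the tenocyte-like level of the same library.

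Other pathway genes were compared between tenocyte-like and macrophage-like cells by the same fold in each library, which 26.3%, 26.4% and 24.1% of all genes passed upward and 28.1%, 26.2% and 36.9% downward. Of 24 other ER folding enzymes with at least 5 CPM, 16, 16 and 11 were higher in tenocyte-like than in macrophage-like cells and 3, 2 and 3 lower, with median log2 ratios of 0.95, 0.94 and 0.37. The largest ratio was that of Fkbp10, a prolyl isomerase that folds procollagen, at 71.2, 78.3 and 40.6 CPM against 1.49, 1.08 and 1.05 CPM. Of 24 translocon and glycosylation genes 12, 11 and 5 were higher and 0, 0 and 1 lower, with medians of 0.56, 0.57 and 0.29. Of 24 ER to Golgi transport genes 11, 11 and 6 were higher and 0, 0 and 1 lower, with medians of 0.57, 0.57 and 0.36. Kdelr3, a receptor that returns escaped ER proteins, was at 50.4, 65.8 and 23.3 CPM against 1.26, 0.672 and 0.449 CPM. Of 10 other sensors and factors 3, 3 and 4 were higher and 2, 2 and 3 lower. Among them, Creb3l1 (OASIS), an ER-bound factor of collagen-secreting cells, was at 58.2, 53.1 and 43.6 CPM against 3.33, 2.69 and 4.19 CPM. Of the 16 other degradation genes measured, 3, 5 and 2 were higher and 6, 3 and 7 lower. Of the 32 members of the module, by the same count, 11, 15 and 9 were higher and 4, 6 and 6 lower.

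Between DTR and WT, 3 of the 32 members differed by more than 1.5-fold in tenocyte-like cells. Chac1, Trib3 and Asns were lower in DTR, where 6.03% of all genes were, so the count of members is near the background. No member was higher by that fold, compared with 8.08% of all genes. The other 29 members lay between 0.736 and 1.32 times the WT level. With TMM scaling the same 3 members were lower, where 773 of 9753 genes were lower and 649 higher. The share of higher calls among all genes called moved from 57.3% to 45.6%. Among the 27 members with a promoter, the CARE was found in Chac1, Trib3, Asns and Herpud1, of which Herpud1 stayed within the fold. Of the other pathway genes, Aars, Atf3, Cnpy2, Faf2, Gars, Kdelr1, Nupr1, Txndc5 and Vldlr also hold it. The part of this motif in the differences was not tested.

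Chac1 was at 105, 32.3 and 108 CPM in tenocyte-like cells, so that DTR stood below both other libraries. The ratio of DTR to WT was 0.309 (0.290 to 0.329). It was 0.365 among cells called female by Xist and 0.298 among those called male by Y genes. Trib3, a pseudokinase that dampens ATF4 and CHOP, was at 33.0, 13.5 and 21.4 CPM, with a ratio of 0.409 (0.370 to 0.452) and values of 0.422 and 0.457 in cells called female and male. Asns was at 75.7, 35.5 and 51.8 CPM, with a ratio of 0.469 (0.441 to 0.499) and values of 0.558 and 0.447. The 3 genes were thus lowest in DTR and low in cells of either sex. They were named for being lower in DTR than in WT, which favours the lowest place, and its share over all genes was not counted.

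The mRNA of ATF4 differed less than these targets, with a ratio of 0.849 (0.832 to 0.866). CHOP (Ddit3), which acts with ATF4, was at 84.3, 80.5 and 122 CPM, a ratio of 0.955 (0.912 to 0.999). Ppp1r15a, also a target of that branch, was at 163 and 177 CPM, a ratio of 1.08 (1.05 to 1.12). Herpud1, which holds both a CARE and an ERSE-II, was at 435 and 320 CPM, a ratio of 0.736 (0.720 to 0.752). Of the ERSE genes, Hspa5 had a ratio of 0.951 (0.939 to 0.963) and Hsp90b1 of 1.12 (1.10 to 1.14).

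A Chac1 UMI was detected in a minority of cells at this depth, which does not limit the number of cells that express the gene. In cells thinned to 2000 UMIs it was detected in 13.9% (13.0 to 14.9), 4.32% (3.58 to 5.16) and 13.5% (11.2 to 16.0) of tenocyte-like cells. T/NK-like cells gave 1.64%, 1.35% and 2.56%, at median depths of 9984, 7910 and 10060 UMIs. The class with least Chac1 held 0 CPM in WT (Schwann-like), 2.04 CPM in DTR (Schwann-like) and 0 CPM in B6 (mural-like). The part of free RNA was not tested. Unthinned, the tenocyte-like shares were 41.6%, 16.3% and 34.0%. The 10% of tenocyte-like cells with most Chac1 held 57.4%, 85.1% and 66.2% of its UMIs, and the highest count in a cell was 35, 32 and 28. For comparison, the top 10% of cells held 27.2%, 26.4% and 29.0% of Hspa5 UMIs. These cells held 70569, 34243 and 12289 UMIs of Hspa5 against 7190, 1132 and 1029 of Chac1. Fewer UMIs per cell give a higher share by counting alone. Neither the genes nor the libraries are matched for this, so no difference in concentration is read from these shares.

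Other genes of the integrated stress response, the wider program under ATF4, were lower in DTR in 9 of 25 cases and higher in none, with a median log2 ratio of −0.49 beside 0.04 over all genes. Mthfd2, of mitochondrial folate metabolism, was at 156 and 74.8 CPM, a ratio of 0.479 (0.458 to 0.500). Cars, a tRNA synthetase, was at 88.4 and 47.9 CPM, and Psat1, of serine synthesis, at 9.14 and 5.00 CPM. None of the 23 other folding enzymes, the 15 other degradation genes, the 24 translocon and glycosylation genes or the 24 transport genes passed 1.5-fold in either direction in these cells. Of the 10 other sensors and factors 1 was lower, Traf2, at 0.646 of its WT level.

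Some other values moved with this comparison. Immediate early genes were higher in DTR tenocyte-like cells in 7 of 15 cases, with a median log2 ratio of 0.47. Cytosolic heat shock genes passed 1.5-fold in 0 of 14, with a median of −0.16. Red cell markers summed to 1039, 4595 and 1274 CPM in tenocyte-like cells. The 5 red cell markers were all detected in each library. Muscle fibre markers summed to 44.6, 109 and 185 CPM and neutrophil markers to 22.6, 1.31 and 0.842 CPM. The part of handling, free RNA or other cells was not tested.

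In epitenon-like cells no member passed 1.5-fold between DTR and WT, with backgrounds of 2.22% for higher and 4.80% for lower genes. Members lay between 0.675 and 1.33. Asns was at 82.0 and 55.3 CPM, a ratio of 0.675 (0.621 to 0.733), Trib3 had 0.735 (0.655 to 0.825) and Chac1 0.880 (0.804 to 0.964). In macrophage-like cells Chac1 alone was lower, at 30.8 and 18.2 CPM, a ratio of 0.588 (0.495 to 0.699), with backgrounds of 3.80% for higher and 3.49% for lower genes. In endothelial-like cells Trib3, Chac1 and Sdf2l1 were lower (background 14.7%) and Hspa13 and Eif2ak3 higher (background 10.5%). Of these 5, the interval excluded 1 for Trib3, at 0.513 (0.356 to 0.731), and for Chac1, at 0.631 (0.436 to 0.908). The Eif2ak3 and Sdf2l1 differences rest on 9 and 16 and on 11 and 8 UMIs. Whether the tenocyte-like difference exceeds that of the other classes was not tested.

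**Figure D3:**
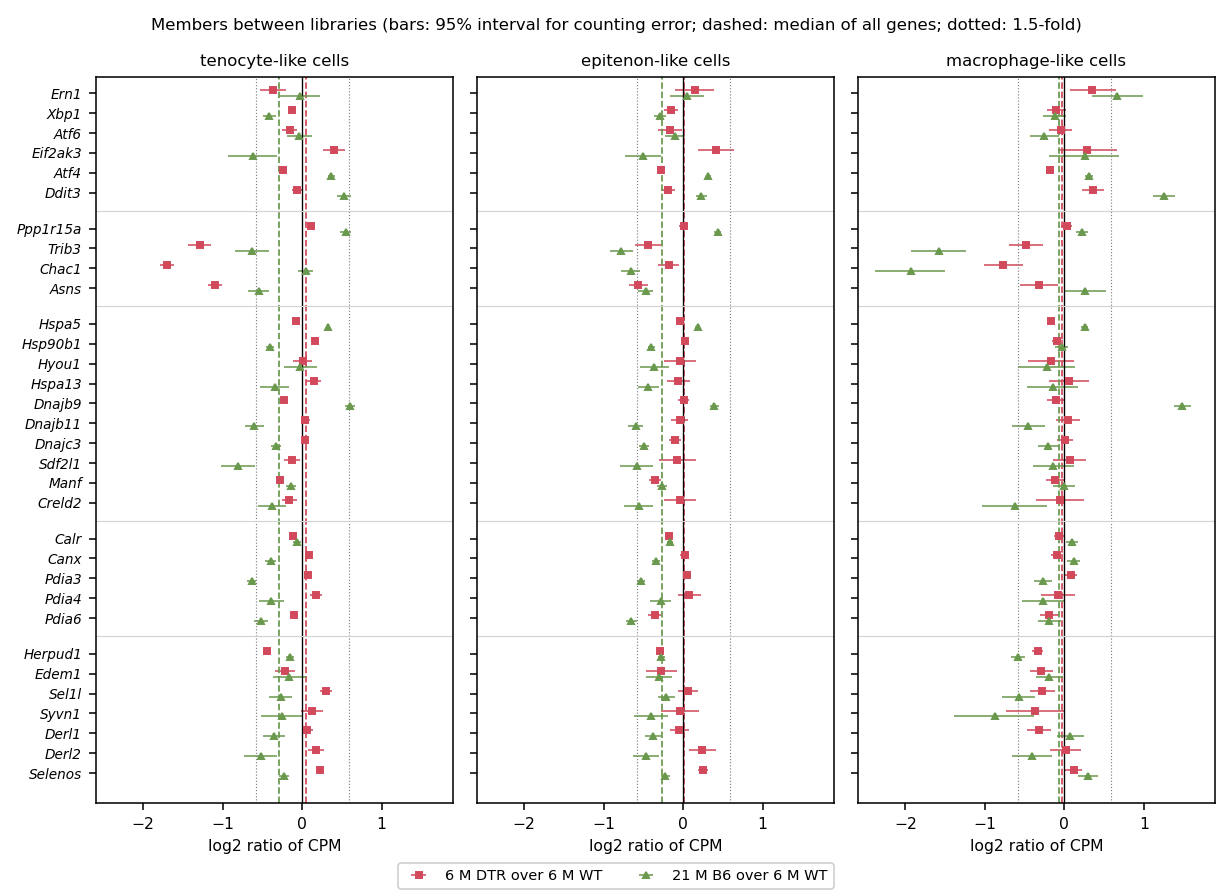
Log2 ratio of CPM to WT for the 32 members (vertical axis, grouped by role) in 3 cell classes, with red squares for DTR, green triangles for B6 and bars for the exact 95% interval of counting error. Dashed lines mark the median of all genes, which in tenocyte-like cells was −0.29 for B6 and 0.04 for DTR, and Chac1, Trib3 and Asns lie farthest left in DTR tenocyte-like cells.

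The comparison of B6 with WT shares the WT library with the preceding one. It was shifted as a whole, since the median log2 ratio of all genes was −0.29 in tenocyte-like, −0.27 in epitenon-like, −0.07 in macrophage-like and −0.21 in endothelial-like cells. TMM scaling moved these medians to −0.08, 0.03, −0.02 and −0.02. In tenocyte-like cells 5 members were lower in B6, namely Eif2ak3, Trib3, Sdf2l1, Dnajb11 and Pdia3, with a background of 18.7%, and Dnajb9 was higher, with a background of 6.53%. The member median was −0.30, close to that of all genes, and 16 of the 32 members lay above the median of all genes. With TMM scaling 3 members were higher (Ddit3, Ppp1r15a and Dnajb9) and Sdf2l1 was lower, where 985 of 9724 genes were higher and 808 lower. The share of higher calls among all genes called was 54.9% in place of 25.9%. Directions in this comparison are therefore given relative to the median of all genes where that matters.

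Dnajb9 was at 156, 133 and 237 CPM in tenocyte-like cells, highest in B6, with a ratio to WT of 1.52 (1.45 to 1.59). Ddit3 was at 84.3, 80.5 and 122 CPM, a ratio of 1.44 (1.36 to 1.54), and Ppp1r15a at 163, 177 and 239 CPM, a ratio of 1.46 (1.40 to 1.53). Atf4 and Hspa5 had ratios of 1.29 (1.26 to 1.33) and 1.26 (1.23 to 1.28). Against the median of all genes these 5 lay at 0.89, 0.82, 0.83, 0.66 and 0.62 on the log2 scale. These 5 were the highest of the members on that scale, and Chac1 came next at 0.33. Their place above the general shift of the library therefore follows from the choice.

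Of the 15 chaperones, cofactors, lectins and isomerases, 5 lay above the median of all genes and 10 below. Among those below, Pdia3 was at 409, 431 and 263 CPM, a ratio of 0.645 (0.619 to 0.672), and Dnajb11 (ERdj3), a BiP cofactor, at 103, 106 and 67.8 CPM, a ratio of 0.660 (0.608 to 0.716). Sdf2l1, which binds Dnajb11, was at 35.1, 32.2 and 20.1 CPM, a ratio of 0.573 (0.492 to 0.664). Relative to the median of all genes these 3 lay at −0.35, −0.31 and −0.52. The sensor PERK (Eif2ak3) was at 15.6, 20.6 and 10.2 CPM, a ratio of 0.654 (0.526 to 0.806), which lay at −0.33. In each of the 4 genes B6 was the lowest library. They were named for being lower in B6 than in WT, which favours this, and its share over all genes was not counted. Xbp1 followed, at 182, 167 and 137 CPM, although within 1.5-fold. Over all genes 18.7% were lower and 6.53% higher, with a median log2 ratio of −0.29. The set medians that follow are not taken relative to it, and the counts are without TMM scaling. Of the other ER folding enzymes 9 of 24 were lower and none higher, with a median of −0.53. Fkbp10 was at 71.2 and 40.6 CPM and Fkbp14 at 20.3 and 10.1 CPM. The 7 fibrillar collagen genes were lower in 5 cases, with a median of −0.74, and 8 of 24 transport genes were lower, among them Kdelr3 at 50.4 and 23.3 CPM.

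Median mitochondrial counts were 2.78%, 2.86% and 5.63% in tenocyte-like cells, so this measure moved with B6. In the same cells muscle fibre markers summed to 44.6, 109 and 185 CPM and satellite cell markers to 27.3, 25.3 and 82.4 CPM. With a limit of 5% mitochondrial counts the ratios to WT were 1.43 for Dnajb9, 0.674 for Pdia3, 0.620 for Dnajb11, 0.506 for Sdf2l1 and 0.828 for Trib3. Those of Ddit3, Ppp1r15a, Atf4, Hspa5 and Eif2ak3 were 1.244, 1.415, 1.41, 1.185 and 0.659. Cytosolic heat shock genes were higher in 9 of 14 cases in B6 tenocyte-like cells, with a median log2 ratio of 1.14. Immediate early genes were higher in 8 of 15, with a median of 0.87. The part of these in the ER genes was not tested.

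Epitenon-like cells of B6 had Trib3, Chac1, Sdf2l1, Dnajb11 and Pdia6 lower, with a background of 11.4%, and no member higher, with a background of 4.37%. With TMM scaling none of these was lower by 1.5-fold, and Atf4, Ppp1r15a and Dnajb9 were higher, where 921 of 9773 genes were higher and 282 lower. The share of higher calls among all genes called went from 27.7% to 76.6%. Pdia6, a disulfide isomerase, was at 163, 127 and 104 CPM. Its ratio to WT was 0.637 (0.606 to 0.669), or −0.38 relative to the median of all genes on the log2 scale. Trib3 was at 40.9, 30.1 and 23.8 CPM and lay at −0.51 on the same scale. Chac1, at 59.7, 52.6 and 37.8 CPM in epitenon-like cells, was lower in B6, whereas in tenocyte-like cells its B6 and WT levels were 108 and 105 CPM. Cytosolic heat shock genes were higher in 10 of 14 cases in these cells, with a median log2 ratio of 1.29, and their part was not tested.

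Macrophage-like cells, where the median of all genes was near 0, showed the widest range of member ratios for B6. Dnajb9 was at 117, 109 and 327 CPM, a ratio of 2.80 (2.59 to 3.01). Ddit3 was at 74.1, 95.3 and 176 CPM, a ratio of 2.38 (2.16 to 2.63). Ern1, the sensor IRE1, was at 17.0, 21.7 and 27.0 CPM, a ratio of 1.59 (1.27 to 1.99). These 3 were the members higher by 1.5-fold, with a background of 9.72%. Trib3, Chac1, Creld2 and Syvn1 were lower, with a background of 10.1%. Creld2 was at 17.5, 16.9 and 11.4 CPM, a ratio of 0.649 (0.486 to 0.859), and Syvn1 at 13.2, 10.2 and 7.19 CPM, a ratio of 0.545 (0.381 to 0.770). With TMM scaling Creld2 did not pass the fold.

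Chac1 in macrophage-like cells was at 30.8, 18.2 and 8.08 CPM, a ratio of 0.262 (0.192 to 0.352) for B6. Trib3 was at 38.9, 27.8 and 13.0 CPM, a ratio of 0.335 (0.262 to 0.425). Both were highest in WT and lowest in B6, the reverse of Ddit3. These genes were named for passing the fold between B6 and WT, which favours such an order. Asns was not lower, at 28.9, 23.2 and 34.6 CPM, a ratio of 1.20 (0.997 to 1.44). After thinning, Dnajb9 was detected in 22.2%, 17.8% and 41.9% of macrophage-like cells, and Ddit3 in 14.6%, 16.4% and 24.9%. T/NK-like cells gave 16.4%, 11.8% and 12.8% for Dnajb9 and 9.84%, 11.5% and 11.5% for Ddit3. Within cells called female and male the Dnajb9 ratio was 2.83 and 3.18 and the Ddit3 ratio 2.39 and 2.64. Cytosolic heat shock genes were higher in 8 of 14 cases in these cells and immediate early genes lower in 8 of 15, and their part was not tested.

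Endothelial-like cells of B6 had 13 members lower, with a background of 25.9%, and Ppp1r15a higher, with a background of 13.1%. With TMM scaling 7 members were lower and 4 higher, where 1692 of 9864 genes were lower and 1880 higher. The share of higher calls among all genes called was 52.6% in place of 33.7%. Xbp1 was at 187, 146 and 95 CPM, a ratio of 0.508 (0.396 to 0.648). Trib3 was at 74.4, 38.2 and 24.0 CPM, a ratio of 0.322 (0.196 to 0.510), and Ppp1r15a at 372, 393 and 638 CPM, a ratio of 1.71 (1.52 to 1.94). The interval included 1 for 4 of the 14 members past the fold, namely Hspa13, Ern1, Sdf2l1 and Derl2. Of the folding genes, Pdia3 was at 279, 234 and 163 CPM, Canx at 256, 210 and 169 CPM, Dnajb11 at 70.3, 59.9 and 43.0 CPM and Creld2 at 20.7, 17.2 and 9.0 CPM. Of the degradation genes, Herpud1 was at 408, 334 and 263 CPM and Sel1l at 50.5, 50.9 and 30.0 CPM. In these 6 genes B6 was the lowest library. They were named for passing the fold between B6 and WT, which favours this, and its share over all genes was not counted. With 134 and 107 cells, members of low level rest on as few as 5 UMIs. Red cell markers summed to 43.0, 3148 and 5285 CPM in endothelial-like cells. Mural and muscle fibre markers were also highest in B6, at the sums given above, and mural-like cells themselves held 862, 757 and 1248 CPM of Ppp1r15a. The part of these cells in these ratios was not tested.

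To ask whether the module follows collagen load, tenocyte-like cells of each library were split in quartiles by the share of their counts from 7 fibrillar collagen genes. Cells were thinned to 2000 UMIs, and collagen genes were left out of the total. The median collagen share ran from 0.289% to 2.69% in WT, from 0.331% to 2.5% in DTR and from 0.126% to 1.16% in B6. No member differed by 1.5-fold in the same direction in all 3 libraries between the top and bottom quartile, where 1.60% of all genes were higher and 1.25% lower. The median log2 ratio of the members was −0.10, 0.02 and 0.11, beside −0.16, −0.00 and 0.02 over all genes. Selenos was higher in the top quartile in each library, from 293 to 384, 355 to 451 and 236 to 333 CPM. Ppp1r15a was lower in each, from 195 to 124, 220 to 155 and 255 to 196 CPM, although its interval in B6, 0.567 to 1.04, included 1. Other members also kept the same direction in each library, among them Pdia3 and Dnajc3 (higher) and Atf4 (lower). For Atf4 in DTR and B6 and for Dnajc3 in B6 the interval included 1. The share of all genes that kept a direction was not counted.

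Hspa5 differed in direction among libraries, with WT at 1140 and 889 CPM, DTR at 974 and 956 CPM and B6 at 1058 and 1431 CPM in the lowest and top quartile. Herpud1, a scaffold of the degradation complex, was at 226 CPM in the lowest and 465 CPM in the top quartile of B6, a ratio of 2.06 (1.60 to 2.67). It was at 377 and 448 CPM in WT and at 310 and 317 CPM in DTR. Pdia3 in B6 went from 189 to 308 CPM, a ratio of 1.63 (1.22 to 2.20), against 1.18 and 1.17 in the other libraries. In B6 each quartile held 204 cells. Its median depth was 10240 UMIs in the lowest and 13090 UMIs in the top quartile before thinning.

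**Figure D4:**
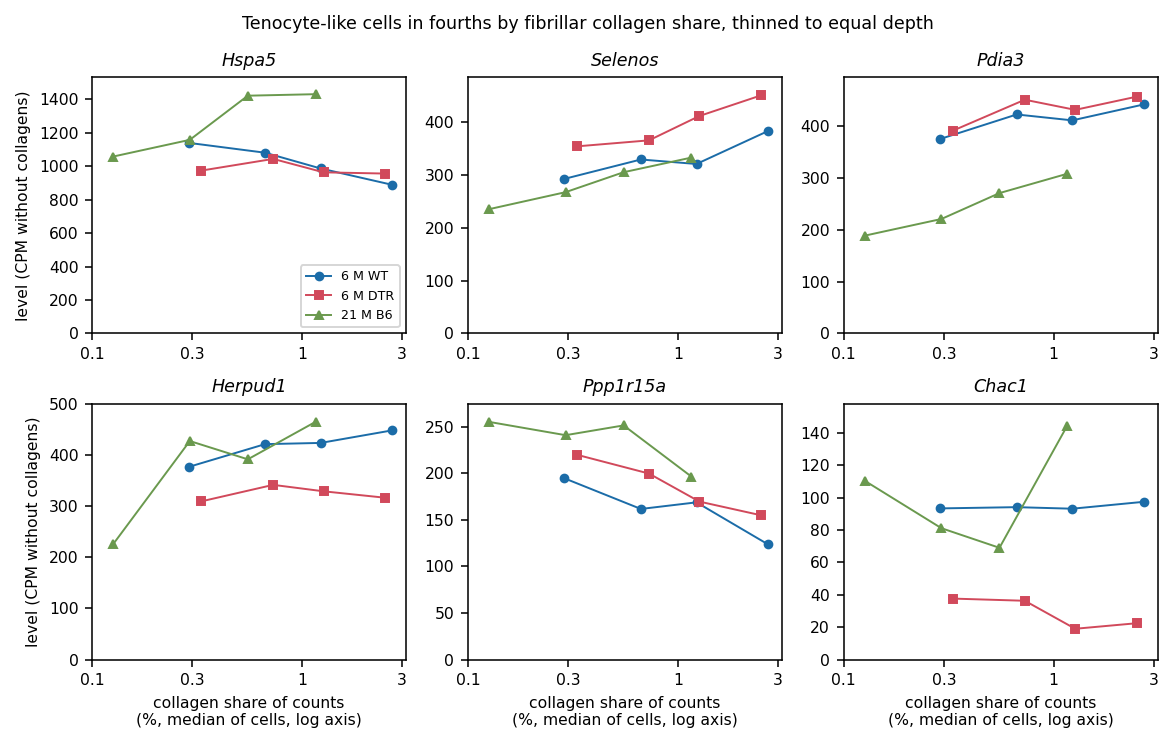
Level of 6 members (CPM without collagen genes) in 4 equal parts of tenocyte-like cells ordered by fibrillar collagen share (median share of each part in %, log axis), 1 line per library, cells thinned to 2000 UMIs. Selenos ends higher and Ppp1r15a lower in the last part than in the first in each library, and Chac1 in DTR stays below the other libraries at each part.

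Over 21 values (7 classes in 3 libraries, which share library and depth), the members did not vary as 1 block. Hyou1 and Pdia4 had a Pearson r of log2 CPM of 0.90, Dnajb11 and Pdia3 of 0.89, and Creld2 and Pdia3 of 0.88. Ppp1r15a and Derl2 stood at −0.84 and Atf4 and Pdia3 at −0.81. The 10 genes most like Hspa5 among 7939 measured in each value were Nampt, Zfp36, Tubb6, Maff, Ddx3x, Cdr2, Egr1, Wsb1, Gnl3 and Atf3, with r from 0.89 to 0.83. No member of the module is among them. Zfp36, Maff, Egr1 and Atf3 are known as genes of the early response to stimulation, and Atf3 is also in the set of integrated stress response genes used above. Of the members compared, Atf4, Dnajb9 and Ppp1r15a were most like Hspa5, with r of 0.77, 0.74 and 0.68. Derl2, Atf6 and Ern1 were least like it, with r of −0.64, −0.61 and −0.61. The 10 genes most like Pdia3, a seed chosen after its values were seen, had r from 0.92 to 0.88. They were Tsn, Golt1b, Ppib, Sdf4, Dnajb11, Nr1d1, Creld2, Tmed9, Tmem167 and Srp19, of which Dnajb11 and Creld2 are members. These are descriptions over points that are not independent.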

How the data were processed

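UMI counts per gene and barcode were used as deposited. The authors aligned and counted the reads with Cell Ranger (6.0.1 in the matrix header, 2.1.1 in the submitters' processing notes) and the deposited counts are neither normalized nor corrected for free RNA. Libraries held 15536, 16099 and 12273 barcodes and 148149903, 123918145 and 92707026 UMIs (WT, DTR and B6). Barcodes between 1000 and 5000 genes with 10% mitochondrial UMIs or fewer entered the classes, doublets included. Counts were summed per class and library and divided by the sum of all genes of those cells (CPM). A gene was measured at 5 CPM or more in either side, and called at 1.5-fold, between classes in all 3 libraries. Ratio intervals are exact (95%) and PCR or cell-to-cell variation does not enter them. The scripts were tested on simulated data. Alternatives were TMM scaling (edgeR 4.0.16), Seurat 5.3.0 clusters, other filters and floors, and cells of either called sex. Scrublet (scanpy 1.11.5) called 1, 6 and 1 cells by its own limit, so the alternative without doublets removed the 5% of cells with the highest scores (404, 300 and 237). Members past the fold were named with their values, and of other sets at most 3 genes with the largest ratios. The members and lists were chosen with earlier results of these data known. The ERSE-II motif was added after the design was set. ER retention signals of the proteins were not analysed here.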

Additional observations from a re-analysis of the deposited data

Results flagged for a closer look

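Ern1, the gene of the sensor IRE1, moved in opposite directions between 21 M B6 and 6 M WT in 2 classes. The ratio was 1.588 (1.27 to 1.99) in macrophage-like cells and 0.5089 (0.193 to 1.22) in endothelial-like cells. The endothelial-like value rests on 19 and 8 UMIs and its interval includes 1. With a limit of 5% mitochondrial counts the ratios were 1.30 and 0.958. With 1 library per group, the difference between the classes was not tested.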

How the results depend on the processing

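No paired analysis was possible because each group is 1 library. Of 143 counts of members past 1.5-fold, 130 stayed within 1.5 times the value given. These counts pool higher and lower members, so a change of direction does not show in them. In tenocyte-like cells of 21 M B6, 1 higher and 5 lower members became 3 higher and 1 lower with TMM scaling. Of 720 ratios of single members 617 moved by less than their counting error, 100 moved by more and 3 reversed. In epitenon-like cells of 21 M B6 the count of 5 members became 3 with TMM scaling (all higher), 3 without mitochondrial, ribosomal protein and collagen genes in the total (all lower) and 2 in cells called male. With clusters in place of gates, tenocyte-like cells of 21 M B6 gave 3 and epitenon-like cells of 6 M DTR 2, and cells called female also gave 2 in the latter. Endothelial-like cells of 6 M DTR gave 2 with a mean over cells, 9 in cells called female, 10 in cells called male and 3 with a floor of 20 CPM. That floor gave 3 between epitenon-like and endothelial-like cells. In cells called male, 3 members passed between epitenon-like and macrophage-like cells and 2 in macrophage-like cells of 6 M DTR. The log2 ratios that reversed were those of Eif2ak3 (−0.0899) and Sdf2l1 (0.33) in endothelial-like cells of 6 M DTR called female and of Derl2 (0.0492) in endothelial-like cells of 21 M B6 called male. The cause was not tested. Endothelial-like cells had no value by clusters, since they shared 1 cluster with mural cells. Depth limits the endothelial-like values most, where members rest on as few as 5 UMIs. Chac1, Trib3 and Asns in 6 M DTR tenocyte-like cells stayed past the fold in 10 of 10 alternatives. In 21 M B6 tenocyte-like cells Sdf2l1 stayed past it in 9, Eif2ak3, Trib3 and Pdia3 in 6 each, Dnajb9 in 5 and Dnajb11 in 4.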

Other observations

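T/NK-like cells (122, 296 and 78 cells) held the sensors at other levels than the stromal classes. Ern1 was at 61.6, 75.1 and 81.0 CPM there, against at most 27.0 CPM in the tenocyte-like, epitenon-like, macrophage-like and endothelial-like cells of any library. Eif2ak3 was at 39.5, 45.5 and 35.7 CPM and Atf6 at 87.6, 96.9 and 96.5 CPM. Ppp1r15a, at 78.2, 88.3 and 53.6 CPM, was lower there than in tenocyte-like cells of each library.

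Mural-like cells (142, 192 and 36 cells) held Ddit3 at 244, 198 and 279 CPM, against 84.3, 80.5 and 122 CPM in tenocyte-like cells. Schwann-like cells (64, 80 and 43 cells) held Pdia4 at 103, 77.7 and 64.8 CPM, above its level in the other 6 classes of the same library, and Hspa13 at 87.9, 73.6 and 59.9 CPM. Both small classes rest on few cells, and no interval between animals can be given.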
